A study of Mus musculus with 4 samples.

Results

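The genes described here write, erase and read the methyl mark on cytosine in DNA. They are the methyltransferases Dnmt1, Dnmt3a and Dnmt3b, the Dnmt1 recruitment factor Uhrf1, the dioxygenases Tet1, Tet2 and Tet3, and the methyl-CpG binding proteins Mbd1 and Mbd2. They were chosen by name, and all 9 were found, each once, among the 29224 genes of the count and FPKM tables. RNA was sequenced from cerebral cortical astrocytes of postnatal day 5 mice, purified by magnetic sorting for GLAST, an astrocyte glutamate transporter. There were 2 libraries from Ezh2 f/f mice, in which both copies of the histone methyltransferase gene Ezh2 are flanked by loxP sites (called the controls below), and 2 from Ezh2 cKO mice, which carry the same floxed alleles together with Aldh1l1-iCre, a Cre recombinase driven by the promoter of an astrocyte gene. The comparison asks how the transcripts of the sorted cells differ when Ezh2 is deleted under this driver. Neither the labels nor the study's methods say whether a library came from 1 animal or a pool, so p-values measure the spread between these libraries, which may be technical.

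In mammals, DNA methylation sits mostly on the cytosine of CpG pairs. DNMT3A and DNMT3B place it on unmethylated DNA (de novo methylation), and DNMT1, brought to newly replicated DNA by UHRF1, copies it to the new strand (maintenance). TET enzymes oxidise methylcytosine to hydroxymethylcytosine and further forms, using oxygen and 2-oxoglutarate, and base excision repair can then restore cytosine. Methyl-CpG binding proteins attach to the mark and recruit histone deacetylase complexes. In the young brain, postmitotic neurons use DNMT3A to add methylation after birth, and EZH2 places a separate silencing mark, trimethylation of histone H3 lysine 27.

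The promoter windows of these genes are shown first, because DNMT1 and UHRF1 act at replication and the best known replication genes share a short E2F-type sequence at their starts. RefSeq promoter sequences on GRCm38.p6 were found for 7 of the 9 genes, and the 250 bases before each annotated start were searched on both strands for TTTCCCGC, TTTCGCGC, TTTGCCGC and TTTGGCGC. Of all 32851 windows searched, 611 (1.86%) held at least 1 of these strings. Among the windows of the methylation genes they were found in 1 of the 3 windows of Dnmt1, with its first base 219 bases before the start, and in 1 of the 2 windows of Uhrf1, 185 bases before the start. The stretches around both matches read as follows, 5′ to 3′ on the strand of the gene, with the match in capitals:
Dnmt1, chr9:20952824-20952853, minus strand: ggtttccgcgcGCGCGAAAaagccggggtc
Uhrf1, chr17:56304117-56304146, plus strand: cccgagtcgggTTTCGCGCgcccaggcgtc

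In GENCODE M21, on the same build, the Dnmt1 stretch overlaps an exon of 2 Dnmt1 transcripts, 1 of them in its untranslated part. The GENCODE start nearest to this stretch, 20952845, lies inside it, with the centre of the stretch 6 bases downstream. The Dnmt1 match is thus next to a GENCODE start, and is upstream only of the RefSeq start used for the window. Most of that window lies downstream of the GENCODE start. The Uhrf1 stretch overlaps 2 GENCODE transcripts but lies outside every exon. The same strings were found in 4 of 15 S phase genes that have a window, 1 of 15 G2 and mitosis genes, 2 of 10 cofactors of the methyltransferases and 2 of 11 PRC2 genes, and in 583 of 27025 genes (2.16%) overall. No window of Dnmt3a, Dnmt3b, Tet1, Tet2 or Tet3 held these letters, which says nothing about binding there.

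The windows were also searched for CpG, the substrate of the enzymes these genes encode. The median 250-base window had 6 CpG pairs, and 17.9% of all windows had 20 or more. The Tet2 window had 51 CpG pairs, and the first of 3 Dnmt3a windows had 38, as many as or more than 98.4% of all windows. The 100 bases next to these starts overlap no GENCODE exon, but they overlap 1 GENCODE transcript for Tet2 and 3 for Dnmt3a. The 100 bases next to each start are given with every CpG in capitals, 20 pairs for Tet2 and 11 for Dnmt3a:
Tet2, chr3:133544391-133544490, minus strand: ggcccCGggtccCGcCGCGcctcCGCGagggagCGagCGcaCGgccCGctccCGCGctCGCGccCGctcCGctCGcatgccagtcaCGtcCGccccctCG
Dnmt3a, chr12:3806880-3806979, plus strand: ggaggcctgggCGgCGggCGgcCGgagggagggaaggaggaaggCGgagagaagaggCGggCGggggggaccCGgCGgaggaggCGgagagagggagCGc

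Among the others, the windows of Dnmt3b, Tet1 and Tet3 held 21, 15 and 17 CpG pairs. Windows of 1 gene differed, since the other Dnmt3a windows held 40 and 15, the other Dnmt1 windows 2 and 7, and the other Uhrf1 window 10. Of the windows with the E2F-type letters, that of Dnmt1 held 26 and that of Uhrf1 held 30. This Dnmt1 window is the one that lies mostly downstream of a GENCODE start. The libraries measure transcripts, so the methylation of these windows in the sorted cells was not measured.

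Sequencing depth was similar in the 4 libraries, between 16273308 and 17522152 counted reads. A count of 3, taken as the most that a gene listed at 0 could hide, came to between 0.171 and 0.184 CPM (counts scaled to library size), and it covers counting error only. Ezh2, the deleted gene, was counted 434 and 327 times in the controls and 211 and 164 times in Ezh2 cKO (values are given for replicate 1 and then replicate 2 throughout). Both Ezh2 cKO libraries lay below both Ezh2 f/f libraries, with 23.1 ± 3.25 CPM against 10.7 ± 1.77 (mean ± SD, n = 2 each) and a log2 fold change (Ezh2 cKO over Ezh2 f/f) of -1.11 (SE 0.16, adjusted p = 3.26e-05, edgeR quasi-likelihood test). Counts are per gene, so reads from exons outside the floxed part are included. Its paralogue Ezh1 was counted 774 and 766 times against 827 and 795 times (log2 fold change -0.02, adjusted p = 0.868).

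The labelled cell type was checked against marker lists, which were chosen with earlier results of these data known. All 12 astrocyte markers were detected, and their summed level was 648 and 704.8 CPM in the controls and 3345 and 3049 CPM in Ezh2 cKO, with 10 of 12 called higher. Aldh1l1 (1285 and 1250 counts against 1280 and 1155) and Sox9 were not called. Over all 16793 genes tested, 34.7% were called higher and 33.6% lower. Markers of other cells were present and moved with the groups as well, and the young neuron sum exceeded the astrocyte sum in every library. These sums are not scaled to gene length. Young neuron markers summed to 11010 and 11640 CPM in the controls and 7691 and 7706 CPM in Ezh2 cKO (7 of 10 lower, 1 higher), and maturing neuron markers to 1984 and 2067 CPM against 7619 and 7431 CPM (10 of 12 higher).

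Oligodendrocyte markers rose from 85.1 and 97.3 CPM to 876 and 753 CPM in sum (8 of 8 tested higher), oligodendrocyte precursor markers from 248 and 244 to 664 and 601 CPM (7 of 8 higher, 1 lower), and microglial markers from 110 and 111 to 340.4 and 288 CPM (10 of 10 higher). All tallies in this paragraph stand beside 34.7% of all tested genes called higher and 33.6% lower. Of 10 neural progenitor markers, 8 were lower and 2 higher, and their sums overlapped between the groups (633 and 674 CPM against 699 and 618 CPM). The summed ependymal and choroid markers were 392 and 775 CPM in the controls against 18.1 and 14.8 CPM in Ezh2 cKO, through Ttr (6326 and 11598 counts against 5 and 12). Of these 6 markers, 3 were lower and 2 higher, and Kl, a choroid gene, had 2 and 3 counts against 23 and 23. Ttr and Folr1 passed the filter on low counts only through the controls, and Kl and Ccdc153 only through Ezh2 cKO. Mobp of the oligodendrocyte markers and P2ry12 and Aif1 of the microglial markers also passed it only through Ezh2 cKO. The tallies of calls above include these genes, but their calls are not used as support. No direction is read from the ependymal and choroid tally, which rests largely on them. No listed marker was at 0 in every library. The mural sum was 202 and 214 CPM in the controls, below 352 and 311 CPM in Ezh2 cKO (3 of 5 markers higher, 1 lower). Endothelial sums overlapped between the groups, at 263 and 254 against 283 and 241 CPM (1 of 7 higher, 1 lower), and erythrocyte sums were 373 and 452 against 469 and 464 CPM (3 of 5 higher).

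Summed marker levels of several cell types thus differ between the groups along with every difference given below. The sums were taken without the filter on low counts, and the part of these markers in the results was not tested. In bulk libraries such as these, fewer cells of a type and less RNA per cell cannot be told apart.

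Of the 9 methylation genes, 8 passed the test at an adjusted p under 0.05, 6 of them lower in Ezh2 cKO (Dnmt1, Dnmt3b, Uhrf1, Tet2, Tet3 and Mbd1) and 2 higher (Dnmt3a and Tet1). Mbd2 was not called. These counts stand against a high background, since 68.4% of all 16793 genes tested were called, 34.7% higher and 33.6% lower. The 8 called genes also had libraries that did not overlap between the groups, as did 84.3% of all tested genes. The median log2 fold change of the 9 genes was -0.93, while that of all tested genes was 0.02. Disregarding direction, the median size of the change was 0.93 for the 9 genes and 0.69 for all genes, and between 51.3% and 73.5% of all tested genes changed by less than each of the 8 called genes. A change of the size seen here was therefore common in these libraries.

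**Figure D1:**
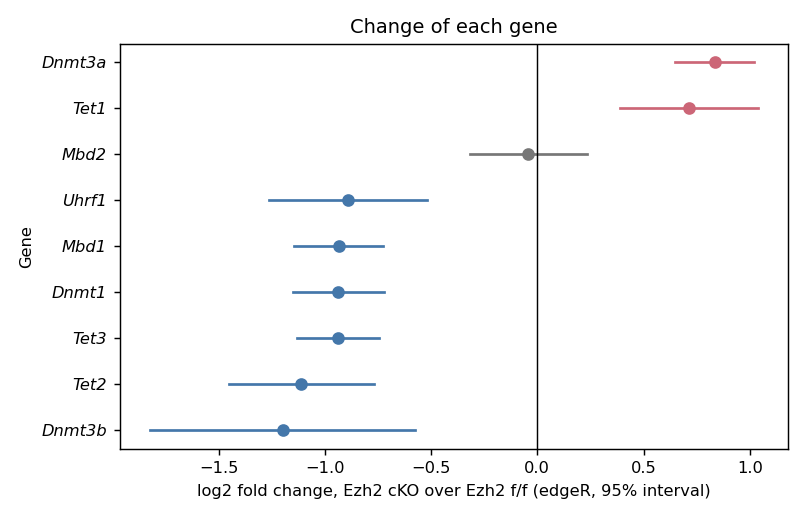
Log2 fold change of each methylation gene, Ezh2 cKO over Ezh2 f/f (horizontal axis), with its 95% interval from the edgeR fit of 2 against 2 libraries. Dnmt3a and Tet1 lie to the right of 0, the interval of Mbd2 spans 0, and the other 6 genes lie between -1.20 and -0.89.

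Dnmt1, the maintenance methyltransferase, was counted 2720 and 2152 times in the controls and 1374 and 1331 times in Ezh2 cKO. Both Ezh2 cKO libraries were well below both controls, and the Ezh2 f/f libraries were farther apart than the Ezh2 cKO libraries. The group means were 148 ± 15.8 CPM in the controls and 77.4 ± 0.785 CPM in Ezh2 cKO (n = 2 each), a log2 fold change of -0.94 (SE 0.10, 95% interval -1.15 to -0.72, adjusted p = 1.46e-06). The gene (ENSMUSG00000004099) is deposited at chr9:20818505-20871184 on the minus strand.

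Uhrf1 encodes the protein that recognises hemimethylated CpG after replication and brings DNMT1 to it. It was counted 235 and 182 times in the controls and 118 and 121 times in Ezh2 cKO, with no overlap between the groups. The level was 12.7 ± 1.54 CPM against 6.84 ± 0.206 CPM, and the log2 fold change was -0.89 (SE 0.17, 95% interval -1.26 to -0.52, adjusted p = 0.000411). The gene (ENSMUSG00000001228) is deposited at chr17:56610321-56630486 on the plus strand. The size of the change was close to that of Dnmt1, and the ratio of Uhrf1 to Dnmt1 in FPKM (fragments scaled to gene length and library size) was 0.150 and 0.147 in the controls and 0.149 and 0.158 in Ezh2 cKO. The groups overlapped in this ratio (exact permutation p = 0.667, two-sided), and with 2 libraries against 2 the smallest p such a test can give is 0.333.

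Dnmt3a, the de novo methyltransferase most active in the postnatal brain, changed in the other direction. It was counted 2231 and 2109 times in the controls and 4100 and 4163 times in Ezh2 cKO. The libraries of each group lay close together and the groups were far apart, with 132 ± 2.54 CPM against 236 ± 5.47 CPM, a 1.79-fold rise (log2 fold change 0.84, SE 0.09, 95% interval 0.65 to 1.02, adjusted p = 1.13e-06). The gene (ENSMUSG00000020661) is deposited at chr12:3856007-3964443 on the plus strand. Counts per gene do not separate the long and short isoforms of DNMT3A, which start at different promoters.

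Dnmt3b, the de novo methyltransferase of the early embryo, was the least abundant of the 9 genes. It was counted 66 and 53 times in the controls and 25 and 30 times in Ezh2 cKO. The groups did not overlap, at 3.62 ± 0.347 CPM against 1.58 ± 0.222 CPM, but the low counts gave the widest interval of the 9 genes (log2 fold change -1.20, SE 0.29, 95% interval -1.82 to -0.58, adjusted p = 0.00217). The gene (ENSMUSG00000027478) is deposited at chr2:153491370-153529650 on the plus strand. Its near copy Dnmt3c, a germline methyltransferase, had at most 4 counts in any library, and how reads that fit both copies were counted is not given in the sources used here.

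Tet3 was the most abundant of the TET genes per length and encodes the family member best known from neurons. It was counted 3316 and 2874 times in the controls and 1731 and 1709 times in Ezh2 cKO. The Ezh2 cKO libraries were almost identical at 98.2 and 98.6 CPM, below 194 and 183 CPM in the controls. The log2 fold change was -0.94 (SE 0.09, 95% interval -1.13 to -0.75), and the adjusted p of 5.12e-07 was the smallest among the 9 genes. The gene (ENSMUSG00000034832) is deposited at chr6:83339355-83436066 on the minus strand, where it overlaps the antisense gene B230319C09Rik, which had at most 11 counts.

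Tet2, which lacks the CpG-binding CXXC domain of its paralogues, was counted 812 and 505 times in the controls and 329 and 317 times in Ezh2 cKO. Of the 9 genes it had the largest ratio between the control libraries, with 47.5 and 32.1 CPM, while the Ezh2 cKO libraries had 18.7 and 18.3 CPM. The log2 fold change was -1.11 (SE 0.16, 95% interval -1.45 to -0.77, adjusted p = 2.59e-05). The gene (ENSMUSG00000040943) is deposited at chr3:133169440-133250900 on the minus strand. With limma on log2(FPKM + 1) the log2 fold change was -0.62, and Tet2 was called with the filter on low FPKM (adjusted p = 0.0111) but not over all 29224 genes (adjusted p = 0.0635), and over all alternatives its adjusted p ranged from 3.29e-22 to that value.

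Tet1, which is most used in stem and progenitor cells, rose. It was counted 256 and 189 times in the controls and 364 and 411 times in Ezh2 cKO. The highest control library had 15.0 CPM and the lowest Ezh2 cKO library 20.7 CPM, and the group means were 13.5 ± 2.09 and 22.2 ± 2.17 CPM (1.64-fold, log2 fold change 0.71, SE 0.15, 95% interval 0.39 to 1.04, adjusted p = 0.000831). The gene (ENSMUSG00000047146) is deposited at chr10:62640349-62744775 on the minus strand. With limma on log2(FPKM + 1) its log2 fold change was 0.42, and it too was called with the filter (adjusted p = 0.0196) but not without it (adjusted p = 0.073), and its adjusted p ranged from 1.17e-06 to that value over the alternatives.

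Mbd1 and Mbd2 encode methyl-CpG readers that lie on the same chromosome and differed in their change. Mbd1 was counted 1609 and 1324 times in the controls and 839 and 794 times in Ezh2 cKO, so that both Ezh2 cKO libraries lay below both controls. Its level was 89.2 ± 7.03 CPM against 46.7 ± 1.24 CPM (log2 fold change -0.93, SE 0.10, 95% interval -1.14 to -0.72, adjusted p = 1.26e-06). Mbd2, whose protein brings the NuRD deacetylase complex to methylated DNA, was counted 400 and 428 times in the controls and 456 and 404 times in Ezh2 cKO. Its groups overlapped, at 25.3 ± 2.7 CPM against 24.6 ± 1.8 CPM, and the log2 fold change was -0.04 (SE 0.13, 95% interval -0.32 to 0.23, adjusted p = 0.786). The sign of this value is not fixed, since it was 0.04 when libraries were scaled to their totals. Mbd1 (ENSMUSG00000024561) is deposited at chr18:74400676-74415803 and Mbd2 (ENSMUSG00000024513) at chr18:70701260-70759202, both on the plus strand.

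The ratio of Mbd1 to Mbd2 in FPKM was 1.91 and 1.47 in the controls and 0.873 and 0.932 in the Ezh2 cKO libraries. Mbd1 was therefore the higher of the pair in both controls and the lower in both Ezh2 cKO libraries. On the log2 scale the ratio averaged 0.74 ± 0.27 against -0.15 ± 0.07 (exact permutation p = 0.333, the smallest possible). A ratio within a library does not depend on how libraries are scaled to each other.

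Levels can be compared between genes only per length, so the order of the 9 genes was taken from FPKM. In Ezh2 f/f, Dnmt1 was highest with a mean of 19.5 FPKM, followed by Mbd1 with 12.8 and Tet3 with 11.0. Dnmt3a with 7.72 and Mbd2 with 7.64 came next, and the libraries of this pair overlapped. Uhrf1 with 2.89 and Tet2 with 2.29 also overlapped, while Tet1 with 0.848 and Dnmt3b with 0.688 were the lowest and did not overlap each other.

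In Ezh2 cKO the order changed at the top. Dnmt3a led with 14.6 FPKM, ahead of Dnmt1 with 10.8, Mbd2 with 7.86, Mbd1 with 7.08 and Tet3 with 6.06. Uhrf1 with 1.65, Tet1 with 1.48, Tet2 with 1.13 and Dnmt3b with 0.317 followed. No neighbours in this order overlapped between their libraries, and Tet1 had moved above Tet2.

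**Figure D2:**
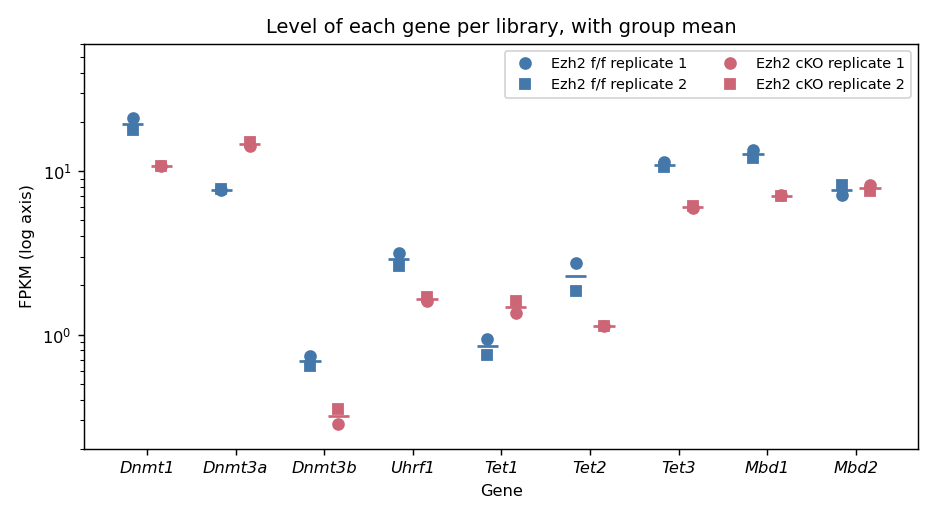
FPKM of each methylation gene (vertical axis, log scale) in the 2 Ezh2 f/f libraries (blue) and the 2 Ezh2 cKO libraries (red), with circles for replicate 1, squares for replicate 2 and a bar at the group mean. Dnmt3a and Tet1 are the genes whose red points lie above the blue ones, and the points of Mbd2 overlap between the groups.

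The opposite changes of Dnmt1 and Dnmt3a nearly balanced in sum. Summed over Dnmt1, Dnmt3a and Dnmt3b, the level was 29.4 and 26.4 FPKM in the controls and 25.3 and 26.2 FPKM in Ezh2 cKO. The means were 27.9 ± 2.18 and 25.7 ± 0.653 FPKM, a difference of -2.18 FPKM, which is close to the spread of the Ezh2 f/f libraries (exact permutation p = 0.333, the smallest possible). The make-up of this sum differed more than its size.

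Dnmt1 held 71.5% and 68.0% of the sum in the controls and 42.6% and 41.3% in Ezh2 cKO. Dnmt3a held 26.0% and 29.6% in the controls and 56.3% and 57.3% in Ezh2 cKO. Dnmt3b stayed under 3% in every library, at 2.51% and 2.42% against 1.12% and 1.35%. The ratio of Dnmt3a to Dnmt1 went from 0.364 and 0.434 to 1.32 and 1.39, so the more abundant of this pair was the maintenance enzyme in both control libraries and the de novo enzyme in both Ezh2 cKO libraries. For each of these shares the groups did not overlap, and each exact permutation p was 0.333.

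The summed level of Tet1, Tet2 and Tet3 was 15.0 and 13.2 FPKM in the controls and 8.47 and 8.86 FPKM in Ezh2 cKO (means 14.1 ± 1.31 and 8.66 ± 0.277), lower in both Ezh2 cKO libraries (exact permutation p = 0.333). Tet3 made up most of it in every library, with 75.4% and 80.3% in the controls and 70.7% and 69.3% in Ezh2 cKO. Tet1 held 6.29% and 5.71% in the controls, below 16.1% and 18.0% in Ezh2 cKO. Tet2 held 18.3% and 14.0% in the controls and 13.3% and 12.7% in Ezh2 cKO, with the second control library close to the Ezh2 cKO libraries. The ratio of Tet2 to Tet3 overlapped between the groups (0.242 and 0.174 against 0.188 and 0.184, exact permutation p = 1.0), whereas that of Tet1 to Tet3 did not (0.0834 and 0.0710 against 0.227 and 0.260, exact permutation p = 0.333).

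**Figure D3:**
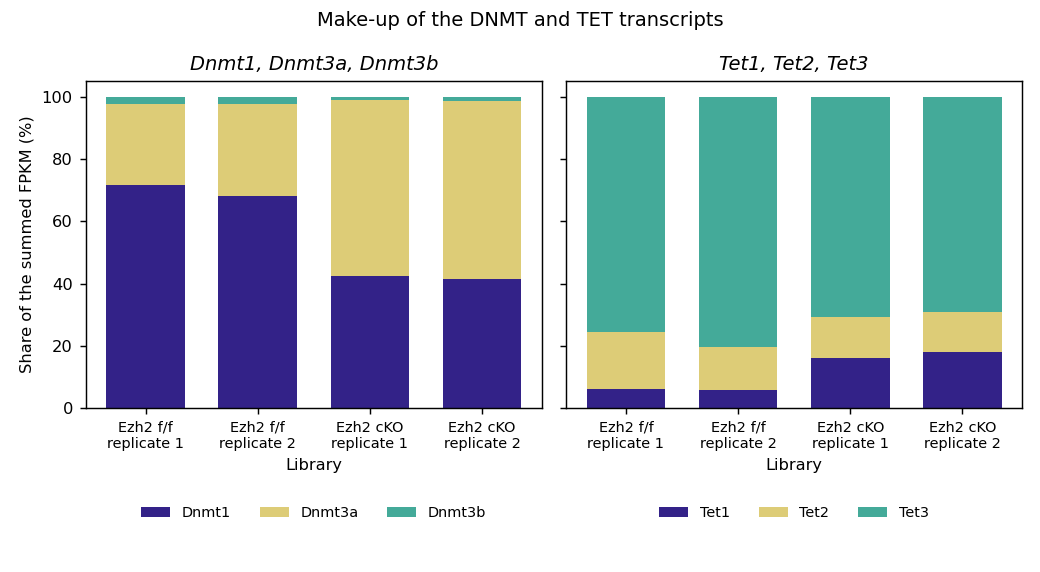
Share of the summed FPKM (vertical axis, percent) held by Dnmt1, Dnmt3a and Dnmt3b (left) and by Tet1, Tet2 and Tet3 (right), with 1 stacked bar per library. Dnmt1 holds 71.5% and 68.0% in the Ezh2 f/f bars and 42.6% and 41.3% in the Ezh2 cKO bars, and Tet3 is the largest part of every bar on the right.

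Genes that work with the methyltransferases are given next. Of 11 listed cofactors of maintenance and de novo methylation, 10 were in the tables and 9 were tested, of which 8 were lower, 0 higher and 1 (Cdca7l) not called, where 33.6% of all genes were lower, and the median log2 fold change was -0.78 beside 0.02 for all genes. Trim28, a corepressor that protects methylation at imprinted loci, was counted 13646 and 12423 times in the controls and 3916 and 3746 times in Ezh2 cKO (log2 fold change -1.86, SE 0.08, adjusted p = 3.47e-10). Cdca7, which works with the remodeller HELLS, fell from 397 and 292 to 130 and 142 counts (-1.43, SE 0.16, adjusted p = 3.37e-06).

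Usp7, a deubiquitinase that binds DNMT1 and UHRF1, fell by 0.85 on the log2 scale (adjusted p = 1.12e-06), and the histone methyltransferase gene Setdb1 fell by 0.83 (adjusted p = 3.38e-06). Hells and Uhrf2, named here after their values were seen because of their closeness to Dnmt1 and Uhrf1, had log2 fold changes of -0.78 (adjusted p = 0.03) and -0.45 (adjusted p = 0.00109). Dnmt3l, the catalytically inactive partner of the de novo enzymes, had 8 and 7 counts in the controls and 2 and 1 in Ezh2 cKO and was too low to be tested.

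The other methyl-CpG readers moved both ways. Of 8, 1 was higher, 3 were lower and 4 were not called, where 68.4% of all genes were called, 34.7% higher and 33.6% lower. The median log2 fold change of 0.02 took the sign of the control library kept (0.28 without Ezh2 f/f replicate 1, but -0.22 without Ezh2 f/f replicate 2). Zbtb4, a zinc finger protein that binds methylated CpG, was counted 199 and 179 times in the controls and 1114 and 1030 times in Ezh2 cKO, the largest change among the readers (log2 fold change 2.41, SE 0.11, adjusted p = 6.17e-10). Mbd3, a NuRD subunit whose protein binds methylated DNA only weakly in mammals, was lower (-0.69, SE 0.09, adjusted p = 9.14e-06), as was Mbd6 (-0.57, SE 0.10, adjusted p = 0.00011).

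On the side of demethylation, 15 listed partners of the TET enzymes and repair genes were all tested, with 4 higher, 3 lower and 8 not called. Over all genes, 68.4% were called, 34.7% higher and 33.6% lower. The list had a median log2 fold change of -0.01. Tdg, the glycosylase that removes the oxidised bases made by TET enzymes, was counted 3157 and 3432 times in the controls and 802 and 753 times in Ezh2 cKO (-2.18, SE 0.11, adjusted p = 8.02e-10). Its value is uncertain, because its pseudogene Tdg-ps2 went the other way, from 39 and 38 to 222 and 209 counts, and reads of near-identical copies can be split by the counting. Ogt, a sugar transferase that binds TET2 and TET3, rose from 1230 and 871 to 1982 and 2075 counts (0.86, SE 0.12, adjusted p = 1.66e-05).

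Gadd45b, a stress gene linked to active demethylation in neurons, had 57 and 56 counts in the controls and 143 and 156 in Ezh2 cKO (1.31, SE 0.21, adjusted p = 6.57e-05). The repair genes Parp1 (0.51, adjusted p = 0.000338) and Neil2 (0.77, adjusted p = 0.0485) were also higher, while Polb (-0.45, adjusted p = 0.00111) and Xrcc1 (-0.35, adjusted p = 0.00766) were lower. Thus repair genes were found in both directions.

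A further list holds 6 chromatin genes whose proteins bind CpG where it is not methylated, through the CXXC domain. All 6 were lower, with a median log2 fold change of -1.15, against a background of 33.6% lower. Among other CXXC genes, Tet1 rose (log2 fold change 0.71), while Dnmt1, Tet3 and Mbd1 fell (-0.94, -0.94 and -0.93). Cxxc4 and Cxxc5, counted with the TET partners, were not called (log2 fold changes -0.16 and -0.01). Kmt2b, a histone H3 lysine 4 methyltransferase, fell from 6357 and 5827 to 1730 and 1589 counts (-1.97, SE 0.09, adjusted p = 4.92e-10), and Kdm2b, Cxxc1 and Fbxl19 had log2 fold changes of -1.52 (adjusted p = 1.75e-08), -1.30 (adjusted p = 3.39e-08) and -0.996 (adjusted p = 1.22e-07).

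Of 19 corepressor genes that methyl-CpG readers recruit, 10 were lower, 1 was higher and 8 were not called (median log2 fold change -0.48), while 68.4% of all genes were called and 33.6% were lower. The NuRD subunit gene Mta2 fell from 4624 and 4383 to 1367 and 1282 counts (-1.86, SE 0.09, adjusted p = 7.82e-10). Chd4, the remodelling ATPase of NuRD, fell by 1.07 on the log2 scale (adjusted p = 6.9e-08), Gatad2a fell by 1.10 (adjusted p = 1.8e-07) and Sin3a, the scaffold of another deacetylase complex, fell by 1.09 (adjusted p = 2.5e-07). The deacetylase gene Hdac1 was the one that rose, from 352 and 304 to 543 and 487 counts (0.56, SE 0.12, adjusted p = 0.00105).

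Supply genes for the methyl donor and for 2-oxoglutarate moved both ways. Of 21, 10 were higher, 3 lower and 8 not called, beside 34.7% higher and 33.6% lower over all genes, with a median log2 fold change of 0.19, or 0.10 when Ezh2 f/f replicate 1 was left out. Idh3a, a mitochondrial isocitrate dehydrogenase subunit that yields 2-oxoglutarate, went from 1545 and 1439 to 3373 and 3449 counts (1.10, SE 0.09, adjusted p = 1.01e-07), and Idh3b rose by 0.57 (adjusted p = 5.3e-05). D2hgdh, whose enzyme turns the TET inhibitor D-2-hydroxyglutarate into 2-oxoglutarate, went from 73 and 76 to 255 and 223 counts (1.58, SE 0.18, adjusted p = 3.14e-06). Ahcyl2, a homologue of the enzyme that clears S-adenosylhomocysteine, rose by 0.80 (adjusted p = 5.7e-05). Among the lower genes, Shmt1 of the folate cycle fell most, from 350 and 254 to 81 and 74 counts (-2.05, SE 0.18, adjusted p = 2.66e-07), beside Mthfd2 (-0.48, adjusted p = 0.0264) and Ahcy (-0.44, adjusted p = 0.0285).

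Germline genes that DNA methylation is known to keep silent in body tissues were listed as a readout of the pathway. Of 23 listed, 18 were in the tables, 5 of these had 3 counts or fewer in every library, and 5 passed the filter on low counts. Dazl, which encodes a germ cell RNA-binding protein, had 2 and 4 counts in the controls and 24 and 43 in Ezh2 cKO. Ddx4, a germ cell helicase gene, had 5 and 5 against 19 and 15 counts. Both passed the filter only through the Ezh2 cKO libraries in which they are high, so their values are given with no test.

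Brdt, a testis bromodomain gene, was detected in both groups with 132 and 126 against 209 and 226 counts (0.66, SE 0.17, adjusted p = 0.00278). Tdrd1 (24 and 19 against 22 and 17 counts) was not called. Taf7l (15 and 14 against 5 and 10 counts) passed the filter only through the controls, in which it is high, so its values too are given with no test. The median log2 fold change was 0.66 over the 5 tested genes, Dazl, Ddx4 and Taf7l included, and -0.08 over all those in the tables when no filter was applied. The first median thus rests in part on genes that the filter selected, and no direction is read from it. Brdt and Tdrd1 had log2 fold changes of 0.66 and -0.23, and Taf7l, which passed only through the controls, had -1.03.

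Since Dnmt1 and Uhrf1 are replication-linked, cell cycle genes are given beside them. Of 17 tested S phase genes, 10 were lower, 1 higher and 6 not called (median log2 fold change -0.61), and of 18 G2 and mitosis genes, 15 were lower, 0 higher and 3 not called (median -1.06), beside 68.4% of all genes called and 33.6% lower. Their summed levels were 461 and 433 CPM in the controls against 243 and 244 CPM in Ezh2 cKO for S phase, and 226 and 228 CPM against 111 and 102 CPM for G2 and mitosis. Dnmt1 and Uhrf1 fell along with them, and the part of dividing cells in these changes was not tested.

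Mcm7, a subunit of the replicative helicase, fell by 2.09 on the log2 scale (adjusted p = 7.58e-10), Cdt1 fell by 1.98 (adjusted p = 2.83e-07) and Mcm5 fell by 1.19 (adjusted p = 7.46e-07). The mitotic genes Kif20a (-1.94, adjusted p = 3.73e-06), Cdc20 (-1.69, adjusted p = 1.97e-07) and Aurka (-1.65, adjusted p = 3.24e-06) were lower as well. Ccne1, a cyclin of S phase entry, went from 111 and 118 to 199 and 237 counts (0.83, SE 0.18, adjusted p = 0.000895). Of the 11 subunits and partners of PRC2, the complex that holds EZH2, 7 were lower, Ezh2 itself included, and 4 were not called (median -0.49, beside 33.6% of all genes lower). Eed was among the lower genes with -0.998 (adjusted p = 3.38e-05).

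**Figure D4:**
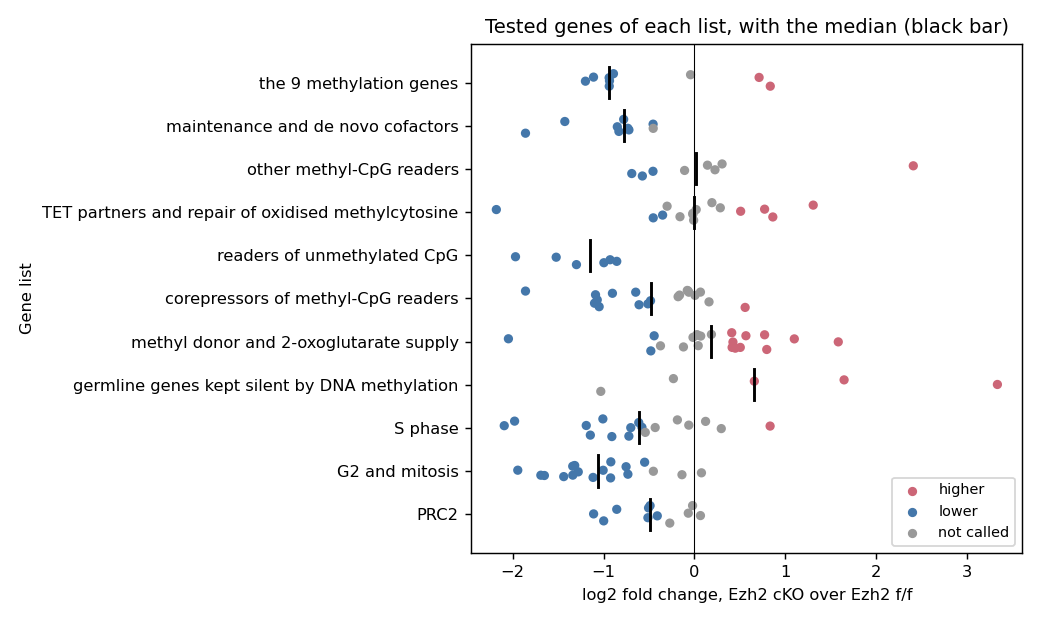
Log2 fold change, Ezh2 cKO over Ezh2 f/f (horizontal axis), of each tested gene in the methylation set and in each related list (rows), coloured by call (higher, lower or not called at an adjusted p of 0.05), with a black bar at the list's median. Medians range from -1.15 for readers of unmethylated CpG to 0.66 for the 5 tested germline genes, which is -0.08 when no filter on low counts is applied. Among these 5, Dazl and Ddx4 passed the filter only through Ezh2 cKO, and Taf7l only through Ezh2 f/f. The colours of Dazl, Ddx4 and Taf7l show no usable call.

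The genes whose profile over the 4 libraries lay nearest to each methylation gene were named by the Euclidean distance between centred log2 CPM values, among 11757 other genes with a mean of at least 5 CPM (11758 for Dnmt3b). With 4 libraries in 2 groups, such a distance mostly reflects the size of the change and is a description only. For Dnmt1 the nearest were Cntrl (0.035), Cyp4f17 and Baz2a, and 601 genes lay within 0.2. Dnmt3a was nearest to Raver2 (0.0233), Zfp672 and Hspa12a, with 513 genes within 0.2, and Tet3 to Brsk2 (0.0134), Vps33b and Cnot8, with 861.

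Uhrf1 was nearest to Trio, Exoc1 and Ythdf2 (490 genes within 0.2), Mbd1 to Zfp574, Fcho1 and Wdr33 (759), and Mbd2 to Gm3571, Fam160b2 and Tbc1d22b (684). Dnmt3b was nearest to Amotl2, Msh6 and Poc5 (168) and Tet1 to Nckap1, Actr2 and Skil (178). Tet2 had the fewest genes of like profile, 22 within 0.2, and the nearest was Myc (0.0208), followed by Gm21781 and Sbf2. For 8 of the 9 genes, at least 168 others lay within this distance.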

How the data were processed

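Per the labels, RNA of sorted cortical astrocytes was sequenced on an Illumina HiSeq platform. The authors deposited unnormalised read counts and FPKM values per gene and library. Their table also holds their own comparison, which was not used: a mean normalised signal, a ratio (fold) of the groups, its log2 value, and a p-value with its adjusted form, all deposited by the authors. The submitters' processing notes list Bowtie2 2.2.3, TopHat2 2.0.12, HTSeq 0.6.0 and the build mm9, without roles, and strand use is not given in the sources used here. Gene coordinates are printed as deposited. They are on another build than GRCm38 (581 of 28799 identifiers shared with GENCODE M21 have the same coordinates there, and 0 of the 9 genes), the files name none, and promoter positions on GRCm38.p6 must not be mixed with them.

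Every sample column was used (0 left out). Genes were filtered with filterByExpr, scaled by TMM (factors 0.967 to 1.04) and tested in edgeR 4.0.16 (R 4.3.3) with the quasi-likelihood test, group as the only term and Benjamini-Hochberg adjustment over 16793 genes, and called at an adjusted p under 0.05. The biological coefficient of variation was 0.0953. CPM are counts over TMM-scaled library sizes, SE is the log2 fold change over the root of F, and intervals use the total degrees of freedom. Replicates were not copies of 1 library: chi-square per degree of freedom was 9.7 between the Ezh2 f/f pair and 6.1 between the Ezh2 cKO pair. The edgeR, DESeq2 and limma tests were checked on simulated data in which few genes changed, and far more were called in the real data. The exact permutation test was not simulated. Alternatives were DESeq2 1.42.0, its size factors in edgeR, library size only, no filter, a mean of at least 50 counts, limma 3.58.1 on log2(FPKM + 1) and log2(FPKM + 0.1) with FPKM of at least 1 in 2 libraries or no filter, a replicate block, each library left out, and stricter calls (an adjusted p under 0.01, or a 1.5-fold change added). The 9 genes and all lists were chosen with earlier results of these data known. Genes named from a list are the 1 to 4 with the smallest p in each direction, unless stated otherwise, and the 3 nearest profiles per gene. 1 gene counted in the list of other methyl-CpG readers is not reported here by name.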

Additional observations from a re-analysis of the deposited data

How the results depend on the processing

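Of the 9 methylation genes, 6 were called lower and 2 higher under DESeq2, DESeq2's size factors, library size only, no filter on low counts, and each library left out. With limma on log2(FPKM + 1) and no filter, 1 was higher, because Tet1 lost its call, as did Tet2. Dnmt3b was not tested with a mean of at least 50 counts or with the FPKM filter, which left 5 lower. The pseudocount of 1 brought Uhrf1 to -0.55, Ezh2 to -0.72 and, without a filter, Dnmt3b to -0.36 (adjusted p = 0.0454). Mbd2 changed sign without being called: 0.04195 with library size only, 0.03792 with limma on log2(FPKM + 1), filtered or not, 0.04252 with a pseudocount of 0.1, and -0.1484 to 0.0551 with 1 library left out; the cause was not tested. Over all genes, 4621 to 6286 were higher and 4154 to 5747 lower under the alternatives (DESeq2 4830 and 5043). Library size only moved the median of all genes from 0.02 to 0.10 and the share of calls that were higher from 50.8% to 55.1%.

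Replicate numbers are not stated to pair the libraries, and over 16793 genes the differences between replicates of both groups correlated with r = 0.130, with 2 pairs only. With the replicate number as a block, 5795 genes were higher and 5599 lower, and 2 and 6 of the methylation genes, so no call of theirs changed. Among the 9 genes, Dnmt3b had the fewest counts and the largest SE, 0.29.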
